A study of Oryza sativa with 12 samples.

Results

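Nicotianamine synthase joins molecules of S-adenosylmethionine into nicotianamine, a small chelator that holds iron, zinc, copper and manganese in soluble form inside the plant. In grasses nicotianamine is also the starting point of the mugineic acids, which the roots release to take up ferric iron, and yellow stripe-like (YSL) transporters move metal complexes of nicotianamine and mugineic acids between cells. Rice has a small family of nicotianamine synthase genes, NAS1, NAS2 and NAS3, of which NAS1 and NAS2 are neighbours on the same chromosome, and NAS1 and NAS2 are best known for their response to iron deficiency.

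The 3 genes were taken by name from the annotation of the Affymetrix rice array, which gave 1 probe set for each, so 3 of 57258 probe sets that are not controls, and 3 of 17905 genes with a probe set. Their gene IDs are 4332608 for NAS1, 4332607 for NAS2 and 4344361 for NAS3. The family was chosen by the signals of NAS3, which was strongest in Co27HT of the 4 groups, so the levels of NAS3 are given as a description with no test, while NAS1 and NAS2 came in by family name.

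The arrays profiled meiosis-stage inflorescences, whole tissue, from field-grown rice. Co27LT and Co27HT are TGMS-Co27 plants, and H1493LT and H1493HT are wild-type H1493 plants, grown at a daily mean of 20 °C (LT) or 28 °C (HT), with 3 biological replicates and 3 arrays per group, 12 in all. TGMS-Co27 is a thermosensitive male-sterile line in the H1493 background that overexpresses a construct of Ugp1, the UDP-glucose pyrophosphorylase gene, behind a Ubi1 promoter and cosuppresses Ugp1. The low- and high-temperature crops also differed in site, season and day length, and these cannot be told apart from temperature. In whole tissue, fewer cells of a type and less RNA per cell cannot be told apart either.

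The labels were set against genes with known behaviour. The Ugp1 probe set, named through the study's tables, had log2 signals of 12.86 to 12.91 in Co27LT, 11.36 to 11.44 in Co27HT, 13.57 to 13.64 in H1493LT and 13.36 to 13.43 in H1493HT, so it was lower in each TGMS-Co27 group than in the H1493 group of the same temperature without overlap. The line carries a Ugp1 transgene, and the share of this signal that came from it was not tested. All 8 listed stamen and floral identity genes and 5 of 6 measured meiosis genes were called present on every array. The summed linear signal of 4 green leaf markers was 17106 to 17481 in Co27LT, 2786 to 3159 in Co27HT, 24852 to 26228 in H1493LT and 6032 to 7076 in H1493HT. This sum was carried by CAB2R and PORA, a chlorophyll-binding protein and a chlorophyll synthesis enzyme, and RBCS, the small subunit of Rubisco, went the other way, with mean log2 signals of 8.60 in Co27LT, 10.14 in Co27HT, 9.14 in H1493LT and 10.27 in H1493HT. RCA, Rubisco activase, had 8.45, 8.03, 9.13 and 8.59 in the same order of groups. Between 43.7% and 46.1% of probe sets were called present on each array, and the number of arrays limits the precision of every group mean.

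Of the family, only NAS3 was called present on 12 of 12 arrays, and its signal stood apart in the male-sterile condition, TGMS-Co27 at high temperature. The log2 signals were 7.67, 7.80 and 7.97 in Co27LT, 10.25, 10.18 and 10.06 in Co27HT, 8.19, 8.43 and 8.16 in H1493LT and 8.05, 8.07 and 8.19 in H1493HT. All 3 Co27HT arrays lay above the other 9, the lowest of them 1.62 log2 units above the highest of the rest. On the linear scale the mean signal was 226 ± 23.7 in Co27LT, 1148 ± 78.8 in Co27HT, 308 ± 33.1 in H1493LT and 275 ± 14.2 in H1493HT (SD, n = 3 each).

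**Figure D1:**
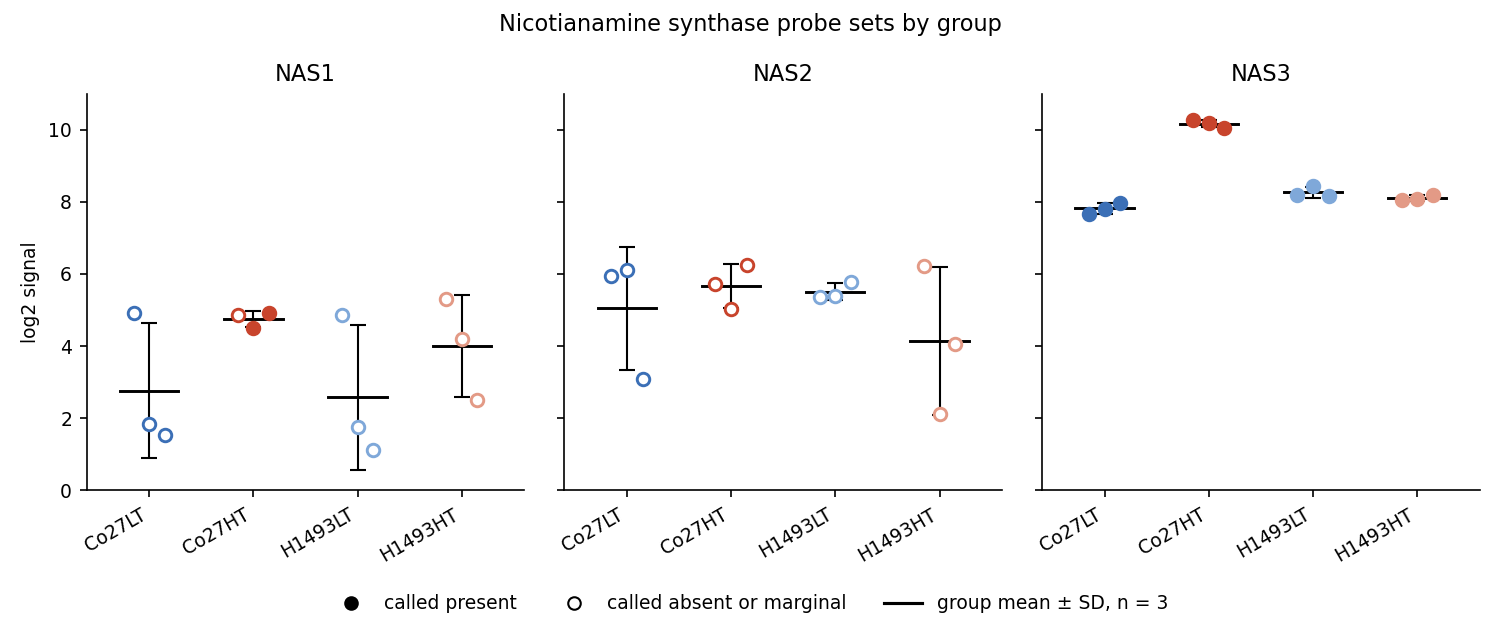
Log2 signal (vertical axis) of the NAS1, NAS2 and NAS3 probe sets on each array of the 4 groups (horizontal axis), with the mean and SD of 3 arrays, filled points where the array called the probe set present. NAS3 lies between 10.06 and 10.25 in Co27HT and at or below 8.43 elsewhere, while NAS1 and NAS2 lie mostly at open points that spread over several log2 units.

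At high temperature NAS3 was 2.06 log2 units higher in Co27HT than in H1493HT (standard error 0.12), a 4.17-fold difference. At low temperature the order of the lines was the other way round, with a log2 difference of -0.45 between Co27LT and H1493LT (standard error 0.12), and the arrays of these groups did not overlap. Within TGMS-Co27 the log2 difference between Co27LT and Co27HT was -2.35 (standard error 0.12), a 5.09-fold difference. Within H1493 the difference was 0.16 (standard error 0.12) with overlapping arrays, and it was 0.34 when each array was centred on its median signal.

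Put in order, the NAS3 level was highest in Co27HT, followed by H1493LT at a distance of 1.90 log2 units, H1493HT a further 0.16 lower and Co27LT a further 0.29 lower. H1493LT and H1493HT, neighbours in this order, overlapped, with SDs of 0.15 and 0.07 log2 units, and their difference was not tested. Of H1493HT and Co27LT, the lowest H1493HT array was 0.08 above the highest Co27LT array. The line-by-temperature difference, the change of TGMS-Co27 from high to low temperature minus that of H1493, was -2.51 (standard error 0.17).

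As a description of how common such a pattern was, 2434 of 57258 probe sets (4.25%) had all 3 Co27HT arrays above the other 9 arrays. Among the 24891 probe sets whose log2 signal averaged 6 or more over the arrays, called bright here, 1805 had this pattern and 29 of them had a Co27HT mean at least 1 log2 unit above the next group. By the gap between the lowest Co27HT array and the highest other array, NAS3 was 3rd of the bright probe sets.

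Other measures differed between the groups as well. The summed green leaf signal and its members CAB2R, PORA and RCA had their lowest means in Co27HT, where NAS3 was highest, but RBCS had its lowest in Co27LT. In the same direction as NAS3, the summed linear signal of 8 stamen and floral identity genes was 30626 to 31611 in Co27LT, 38225 to 39390 in Co27HT, 33203 to 34197 in H1493LT and 36349 to 37705 in H1493HT. That of 9 measured tapetum and anther wall genes was 6466 to 6583 in Co27LT, 9622 to 9865 in Co27HT, 6425 to 6887 in H1493LT and 9011 to 9452 in H1493HT. Both sums were thus highest in Co27HT without overlap, and both were also higher at high temperature in H1493. Their members did not all follow. Against H1493HT, the Co27HT means of SPW1, MADS4, MADS6 and MADS7 were higher and those of MADS2, MADS3, MADS58 and MADS8 lower. MSP1, the largest member of the tapetum sum, had a mean log2 signal of 12.46 in Co27HT and 11.97 in H1493HT. TDR and EAT1 also had higher means in Co27HT. C4 (10.68 against 11.25), CYP703A3 (7.22 against 8.32), GAMYB, C6, CP1 and PTC1 had lower ones. The sums of the meiosis and vascular genes overlapped between Co27HT and H1493HT. MEL1, the largest member of the meiosis sum, had a mean log2 signal of 12.67 in Co27HT and 12.45 in H1493HT. MSH5 (8.91 against 9.47) and PAIR2 (9.97 against 10.35) were lower in Co27HT without overlap. MER3, PAIR1 and DMC1 had lower means there, with overlapping arrays. The labelling and hybridisation spike-ins averaged a log2 signal of 9.56 to 9.74 in Co27LT, 10.29 to 10.54 in Co27HT, 9.56 to 9.70 in H1493LT and 10.11 to 10.31 in H1493HT. The GAPDH 3′ minus 5′ log2 difference, a sign of RNA quality, was 2.07 to 2.63 in Co27LT, 2.12 to 2.56 in Co27HT, 1.94 to 2.32 in H1493LT and 1.82 to 2.21 in H1493HT. Their part in the NAS3 level was not tested. The 2 measured root markers had a summed linear signal of 55.3 to 128 over all arrays. Of them, LSI1 was called present on 7 of 12 arrays, with log2 signals between 5.69 and 6.96. LSI2, a root silicon transporter, was called present on none.

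NAS1 and NAS2 gave signals near background. NAS1 was called present on 2 of 12 arrays, both of Co27HT, and NAS2 on 0 of 12. The NAS1 log2 signals were 4.92, 1.83 and 1.54 in Co27LT, 4.86, 4.50 and 4.91 in Co27HT, 4.87, 1.76 and 1.10 in H1493LT and 5.31, 4.18 and 2.49 in H1493HT. The replicates of 1 group spread by up to 3.77 log2 units for NAS1 and all groups overlapped. NAS2 had 5.95, 6.10 and 3.08 in Co27LT, 5.72, 5.03 and 6.25 in Co27HT, 5.35, 5.39 and 5.77 in H1493LT and 6.22, 2.11 and 4.05 in H1493HT, with a spread of up to 4.10 log2 units within a group.

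No difference of NAS1 or NAS2 passed the test, limma's moderated test over all 57258 probe sets with Benjamini-Hochberg adjustment. Between Co27HT and H1493HT the log2 difference was 0.76 for NAS1 (95% confidence interval -1.95 to 3.47, adjusted p = 0.826) and 1.54 for NAS2 (-0.86 to 3.94, adjusted p = 0.537). Between Co27LT and H1493LT it was 0.19 for NAS1 (-2.52 to 2.89, adjusted p = 0.988) and -0.46 for NAS2 (-2.86 to 1.94, adjusted p = 0.955). The intervals at high temperature include the size of the NAS3 difference between the same groups, so a change of that size in NAS1 or NAS2 is not excluded. Between Co27LT and Co27HT it was -1.99 for NAS1 and -0.62 for NAS2 (limma adjusted p = 0.273 and 0.734), and between H1493LT and H1493HT it was -1.42 and 1.38 (0.474 and 0.426). The line-by-temperature difference was -0.58 for NAS1 (adjusted p = 0.928) and -2.00 for NAS2 (adjusted p = 0.642), both limma values.

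The genes whose signal followed NAS3 most closely over the 12 arrays were also highest in Co27HT, though by less. Among 17046 bright probe sets with exactly 1 gene symbol, the highest Pearson correlations with NAS3 were 0.979 for LOC4334703, 0.979 for LOC4332198 and 0.964 for LOC4331300, which is EXPB7, a beta-expansin, a class of proteins that loosen cell walls. The next were LOC4343970 (0.954), LOC4324774 (0.954), LOC9268059 (0.950), LOC4331137 (0.950) and LOC4350039 (0.949). All 12 points share their arrays and fall into a high group and a low group, so these values describe mainly the contrast of Co27HT with the rest. LOC4332198 averaged a log2 signal of 11.20 ± 0.06 in Co27LT, 12.00 ± 0.05 in Co27HT, 11.28 ± 0.05 in H1493LT and 11.35 ± 0.02 in H1493HT (SD, n = 3 each). After quantile normalization its correlation was 0.982, rank 1, whereas LOC4334703 had 0.910 and rank 40.

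**Figure D2:**
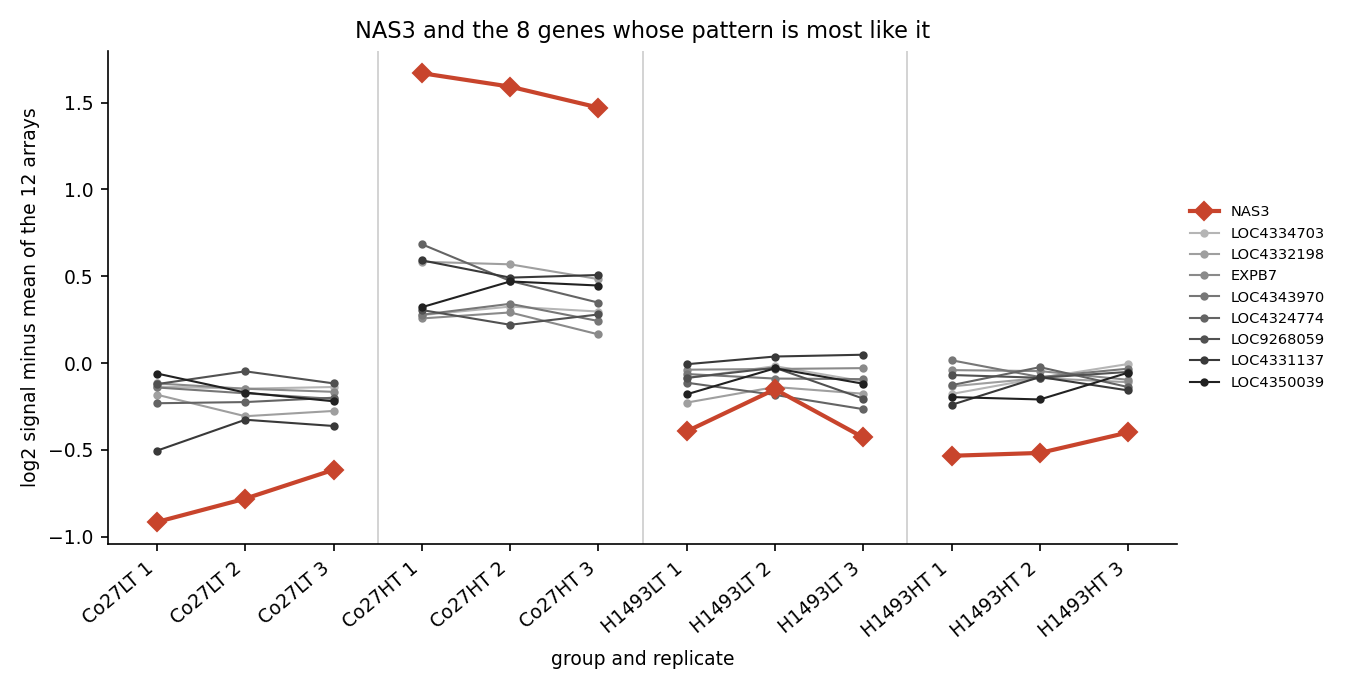
Log2 signal minus the mean of the 12 arrays (vertical axis) for NAS3 and the 8 genes with the highest correlation with it, by group and replicate (horizontal axis), with replicates of a group joined for legibility. All 9 genes are highest on the Co27HT arrays, and NAS3 has the widest span of them.

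Around nicotianamine synthase stand the genes that supply its substrate, convert or move its product, take up metals, store them, and regulate iron. Of 104 genes listed for these roles, 44 had a probe set named by the annotation. Of the 44, 27 were called present on all arrays, 12 on some and 5 on none (IRT1, YSL4, YSL8, YSL11 and YSL18). The mugineic acid synthase DMAS1, the nicotianamine exporter ENA1, the transporter YSL2, the ferritins FER1 and FER2, and the regulator HRZ1 had no probe set under these names and were not analysed here. The names of the mugineic acid exporter TOM1 and the regulator IRO2 pointed to other genes in the annotation and were left out.

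Between the lines few listed genes differed. In Co27HT against H1493HT, 2 of 44 were higher and 0 lower at an adjusted p under 0.05 by limma, against 2.58% of all probe sets called (0.833% higher and 1.74% lower). The listed genes had a median log2 difference of 0.05 and all probe sets 0.03. The 2 genes were metal uptake transporters, NRAMP5, the manganese and cadmium transporter of rice roots, and ZIP1, a zinc transporter.

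NRAMP5 had log2 signals of 8.16, 8.03 and 8.18 in Co27HT, against 7.16, 7.41 and 7.27 in H1493HT, a difference of 0.84 (standard error 0.12, limma adjusted p = 0.0107). ZIP1 had 8.13, 7.94 and 7.95 in Co27HT, against 7.01, 7.10 and 7.16 in H1493HT, a difference of 0.91 (standard error 0.12, limma adjusted p = 0.0097). Neither gene's groups overlapped. Neither call held when arrays were centred on their medians (adjusted p = 0.0502 for NRAMP5 and 0.061 for ZIP1) or when only the 6 arrays compared were fitted (adjusted p = 0.175 and 0.146).

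In Co27LT against H1493LT, 1 of 44 was higher and 1 lower by limma, against 1.58% of all probe sets called (0.856% higher and 0.72% lower), with a median log2 difference of -0.05 over the list and -0.01 over all probe sets. IRO3, a basic helix-loop-helix repressor of iron deficiency genes, had log2 signals of 8.66, 8.73 and 8.78 in Co27LT, against 8.0, 7.71 and 8.11 in H1493LT, a difference of 0.78 (standard error 0.13, limma adjusted p = 0.0194). ZIP4, another zinc transporter, had 8.45, 8.22 and 8.16 in Co27LT, against 8.93, 9.09 and 9.01 in H1493LT, a difference of -0.73 (standard error 0.10, limma adjusted p = 0.0069). The groups did not overlap for either gene. The IRO3 call did not hold with median centring (adjusted p = 0.0662), and with only the 6 arrays compared neither call held (adjusted p = 0.124 for IRO3 and 0.103 for ZIP4).

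IRO3 also lost its call without H1493LT replicate 1 (adjusted p = 0.0647), H1493LT replicate 2 (0.0634), Co27LT replicate 1 (0.0595), Co27LT replicate 2 (0.075) and Co27LT replicate 3 (0.0834). Its difference stayed between 0.67 and 0.87 over all 12 arrays left out in turn.

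**Figure D3:**
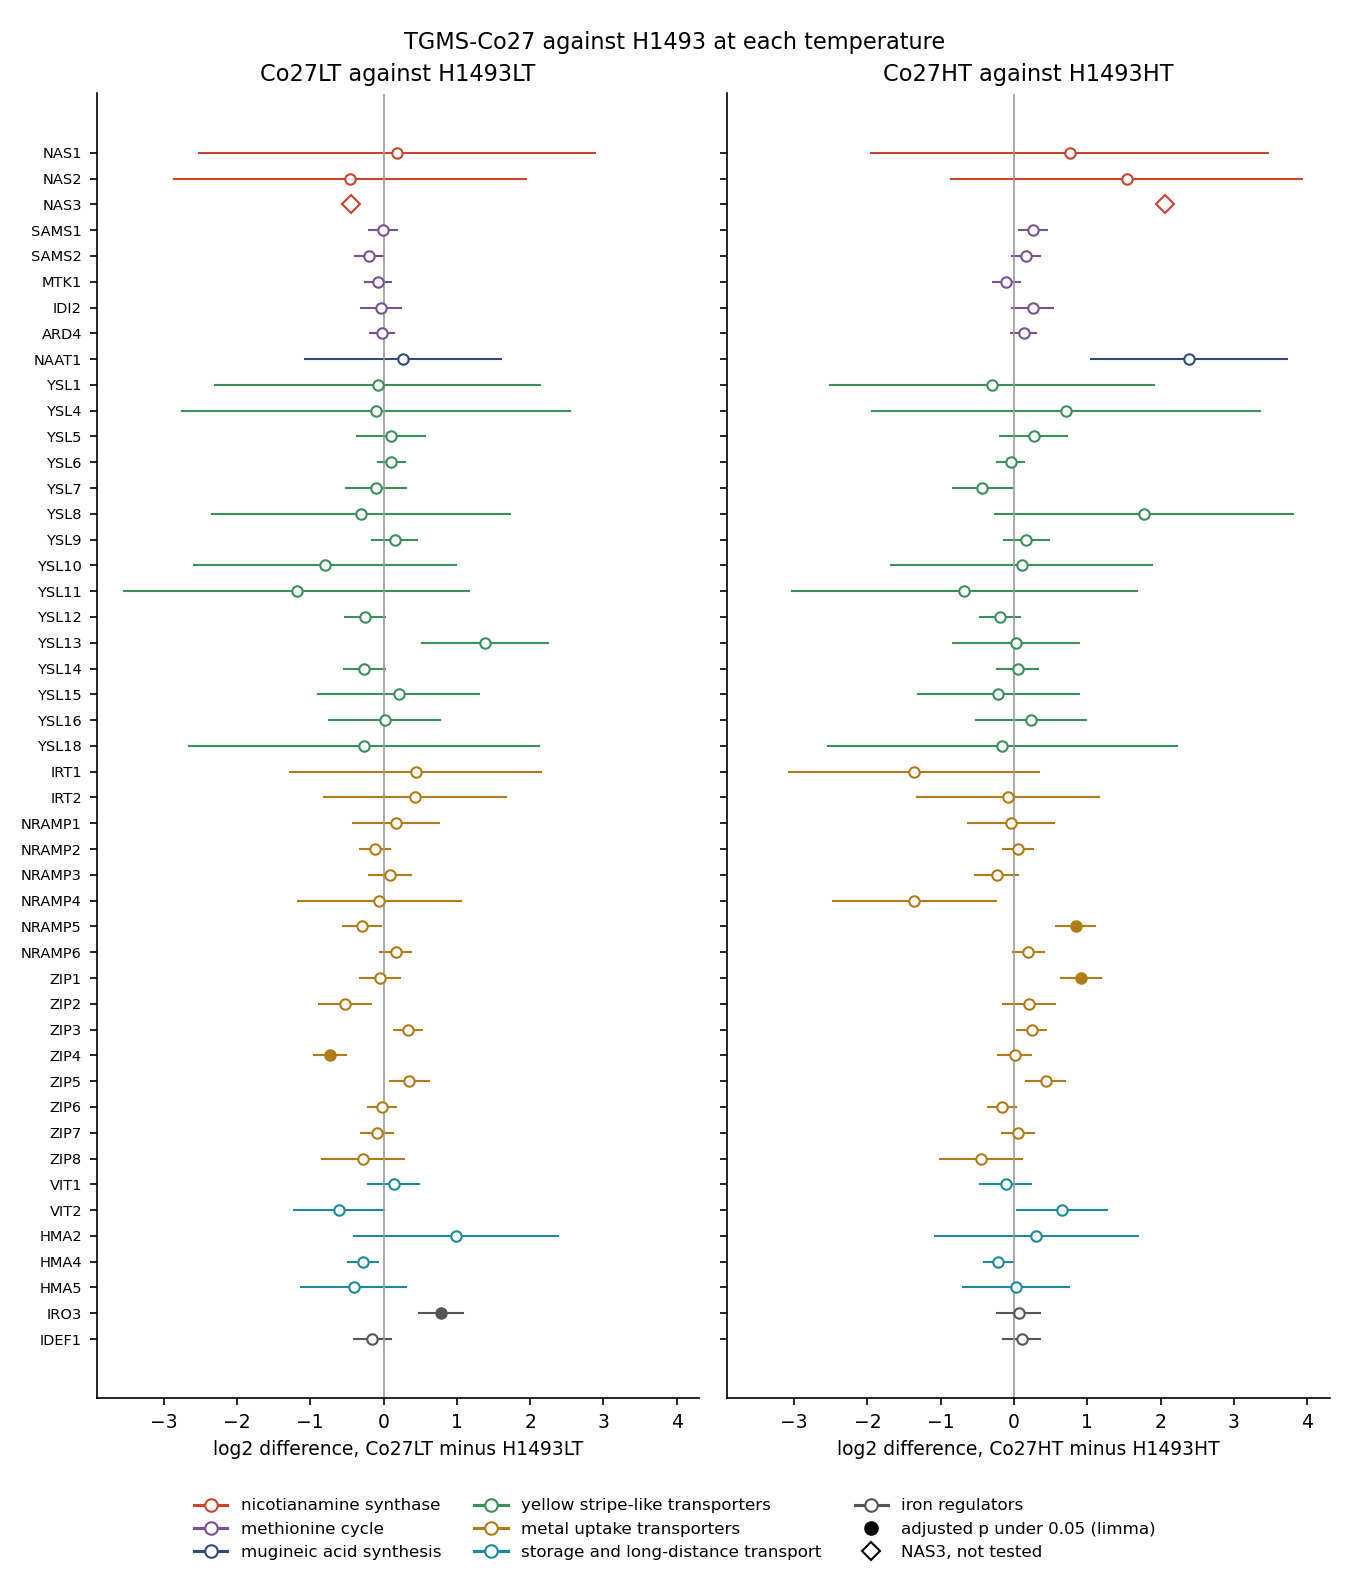
Log2 difference of TGMS-Co27 minus H1493 (horizontal axis) at low temperature (left) and high temperature (right) for NAS1, NAS2, NAS3 and the 44 listed genes (rows), with 95% confidence intervals for the tested genes, filled where limma's adjusted p is under 0.05. NRAMP5 and ZIP1 are filled at high temperature and IRO3 and ZIP4 at low temperature, and NAS3, drawn as an untested diamond, stands at 2.06 and -0.45.

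Temperature was a much wider contrast for these genes. In Co27LT against Co27HT, 9 of 44 were higher and 18 lower by limma, 61.4% in all, against 29.8% of all probe sets called (15.1% higher and 14.7% lower). Among bright probe sets 59.2% were called, and 24 of the 31 bright listed genes. In H1493LT against H1493HT, 8 of 44 were higher and 17 lower, 56.8%, against 26.8% of all probe sets (13.8% higher and 13% lower) and 54.3% of bright ones, and 22 of the 31 bright listed genes were called. The median log2 difference was -0.45 over the list and -0.16 over all probe sets in TGMS-Co27, and -0.41 and -0.07 in H1493. With arrays centred on their medians the split was 10 higher and 12 lower in TGMS-Co27, and 8 higher and 11 lower in H1493.

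Most temperature calls were made in both lines. Of the 44 genes, 7 were higher at low temperature in both lines, 16 lower in both and 0 opposite, and 15 passed in neither. Of all probe sets, 11% were higher in both, 9.93% lower in both and 0.152% opposite. The listed genes called in the same direction in both lines were 52.3% of the 44 and 64.5% of the 31 bright ones, against 45.2% of all bright probe sets. The 4 genes that passed in TGMS-Co27 alone (SAMS1, ARD4, NRAMP3 and IRO3) had no called line-by-temperature difference. The NRAMP3 call, 0.46, was lost without Co27HT replicate 1 (limma adjusted p = 0.0818) or 2 (0.0524) and without Co27LT replicate 2 (0.0751) or 3 (0.0903), after quantile normalization (0.0526) and with only the 6 arrays compared (0.0761). NRAMP5 and ZIP6 passed in H1493 alone, and of these NRAMP5 had a called one. The ZIP6 log2 difference, -0.38, was -0.20 with median centring and did not pass (limma adjusted p = 0.354).

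**Figure D4:**
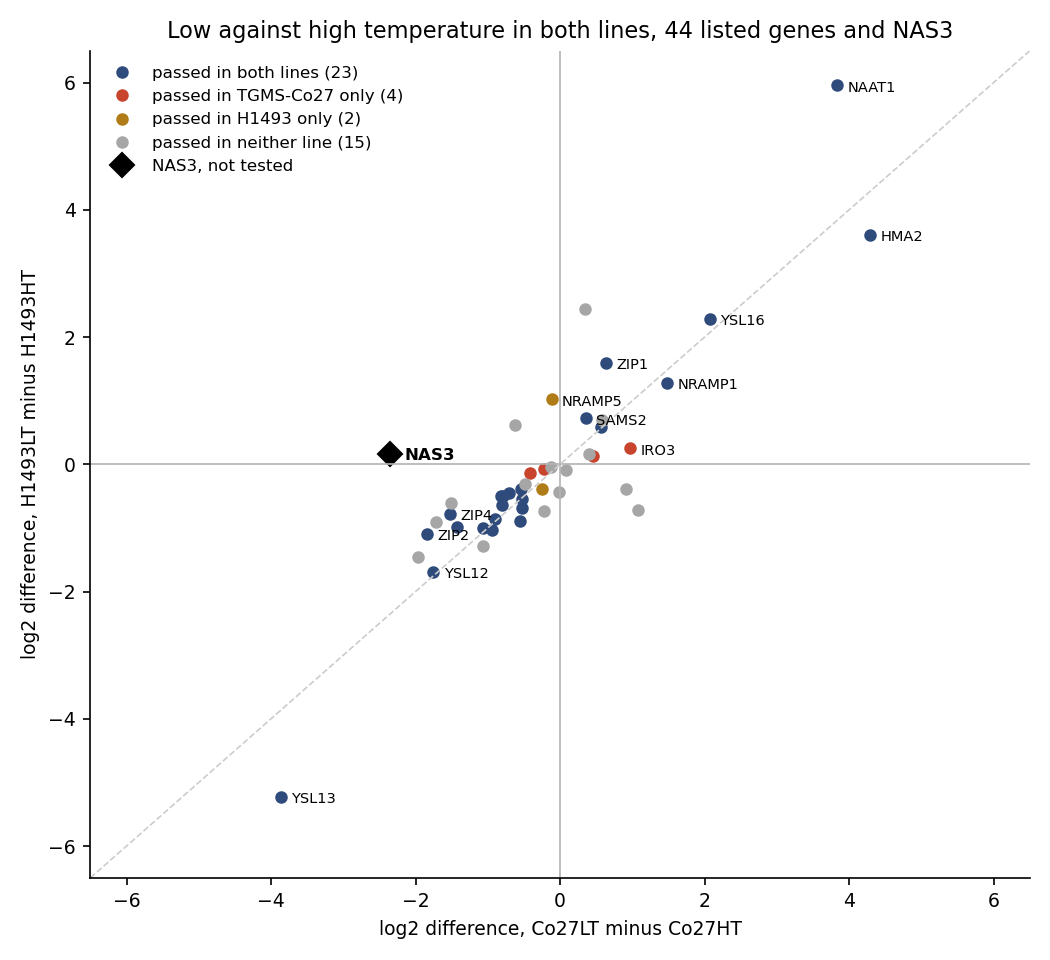
Log2 difference between low and high temperature in TGMS-Co27 (horizontal axis) and in H1493 (vertical axis) for the 44 listed genes, coloured by the lines in which limma's adjusted p was under 0.05, and for NAS3, which was not tested; the dashed line marks equal differences. NAS3 lies at -2.35 and 0.16, away from the 23 genes called in both lines, which all have the same sign in both.

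Among the suppliers of S-adenosylmethionine and the methionine cycle that recovers the by-product of nicotianamine synthesis, all 5 measured genes passed in TGMS-Co27, 1 higher and 4 lower, and 3 passed in H1493, 1 higher and 2 lower. SAMS2, an S-adenosylmethionine synthetase, was higher at low temperature by 0.35 log2 units in TGMS-Co27 (limma adjusted p = 0.0107, and 0.0857 with only the 6 arrays compared) and by 0.72 in H1493 (0.000192). SAMS1, of the same family, had a log2 difference of -0.41 in TGMS-Co27 (limma adjusted p = 0.00501), which did not pass with arrays centred on their medians (-0.13) or after quantile normalization (-0.18). MTK1, methylthioribose kinase, had -0.52 in TGMS-Co27 and -0.55 in H1493, and IDI2, whose barley counterpart is induced by iron deficiency, had -0.79 and -0.50, all called. With median centring MTK1 in TGMS-Co27 had -0.24 (limma adjusted p = 0.175) and IDI2 in H1493 had -0.32 (0.190), and neither passed. The IDI2 call in H1493 was also lost with only the 6 arrays compared (0.085) and with the mean over its probe sets (0.105). ARD4, an acireductone dioxygenase, had -0.23 in TGMS-Co27 (limma adjusted p = 0.0459), with the opposite sign, 0.06, under median centring, and the call was lost without any 1 of the 12 arrays (0.0571 to 0.118). A second SAMS2 probe set, called present on 0 arrays, had -2.32 in TGMS-Co27, and with the mean over both probe sets SAMS2 passed in neither line (limma adjusted p = 0.325 in TGMS-Co27 and 0.379 in H1493).

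NAAT1, nicotianamine aminotransferase, takes nicotianamine on towards mugineic acids and was the only measured gene of that step. It had log2 signals of 8.12, 8.08 and 8.10 in Co27LT, against 5.32, 4.93 and 2.56 in Co27HT. In H1493 it had 8.0, 7.92 and 7.58 at low temperature, against 1.78, 2.10 and 1.76 at high temperature. All low-temperature arrays called it present and lay above all high-temperature arrays, of which 1, of Co27HT, called it present.

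In TGMS-Co27 the measured NAAT1 difference was 3.83 (limma adjusted p = 0.000882), and its size was loosely set, since 2 of 3 Co27HT arrays called NAAT1 absent. It was 2.97 without Co27HT replicate 3 and 4.35 without Co27HT replicate 1, and it passed in both. In H1493 it was higher in H1493LT by a capped 21.9-fold, with mean log2 signals of 7.84 in H1493LT and 1.88 in H1493HT (limma adjusted p = 7.07e-05). A capped value sets the mean of the brighter group against a floor for each array of the other group. The floor was the lowest log2 signal of any probe set that the array called present (2.93 to 3.89), or the measured signal where that was higher. It is not a detection limit of the gene's own probe set, so a capped value is not a lower bound. The limma adjusted p beside it belongs to the measured difference. Since 5 of the 6 high-temperature arrays called NAAT1 absent, no difference between Co27HT and H1493HT is given.

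The YSL transporters split by member. Of 15 measured, 2 were higher and 5 lower at low temperature in each line by limma. YSL16, which carries iron and copper complexes, had 9.70, 9.60 and 9.55 in Co27LT against 7.72, 7.04 and 7.88 in Co27HT, and 9.69, 9.43 and 9.68 in H1493LT against 6.51, 7.65 and 7.80 in H1493HT. These were differences of 2.07 (limma adjusted p = 0.00117) and 2.28 (0.000748) without overlap between temperatures. YSL9 was higher by 0.57 log2 units in TGMS-Co27 and 0.58 in H1493, where the call was lost with only the 6 arrays compared (limma adjusted p = 0.0546).

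YSL13 went the other way. It had 3.95, 2.51 and 3.40 in Co27LT against 7.09, 6.92 and 7.44 in Co27HT, and 1.55, 1.66 and 2.50 in H1493LT against 7.35, 6.84 and 7.17 in H1493HT. Every high-temperature array called it present and no low-temperature array did. It was lower by a capped 12.8-fold in Co27LT than in Co27HT (limma adjusted p = 5.4e-05) and by a capped 15.2-fold in H1493LT than in H1493HT (1.17e-05). YSL12 was 3.38-fold lower in Co27LT (limma adjusted p = 6.65e-06) and 3.24-fold lower in H1493LT (1.06e-05), and no array of these 2 groups called it present. A second, never present YSL12 probe set had log2 differences of -1.52 and 0.90. With the mean over both probe sets YSL12 passed in neither line (limma adjusted p = 0.0909 in TGMS-Co27 and 0.738 in H1493).

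YSL6, YSL7 and YSL14 were lower in both lines, with log2 differences of -0.53, -0.56 and -0.81 in TGMS-Co27 and -0.68, -0.89 and -0.50 in H1493. The YSL7 call in TGMS-Co27 (limma adjusted p = 0.0435) was lost without any 1 of 9 arrays, all except Co27HT replicate 1 and H1493LT replicates 1 and 3 (up to 0.136). The YSL14 call in H1493 (0.0133) was lost without H1493LT replicate 3 (0.051). With median centring 3 of these calls were lost, with -0.25 for YSL6 in TGMS-Co27 (limma adjusted p = 0.225), -0.27 for YSL7 in TGMS-Co27 (0.411) and -0.32 for YSL14 in H1493 (0.231). The YSL7 call was also lost with only the 6 arrays compared (0.0957). YSL15, the root transporter of ferric mugineic acid, was called present on 5 of 12 arrays, with log2 signals between 3.97 and 5.78, and passed in no comparison. YSL18, known from reproductive organs, was called present on none, with signals between 1.53 and 5.60.

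**Figure D5:**
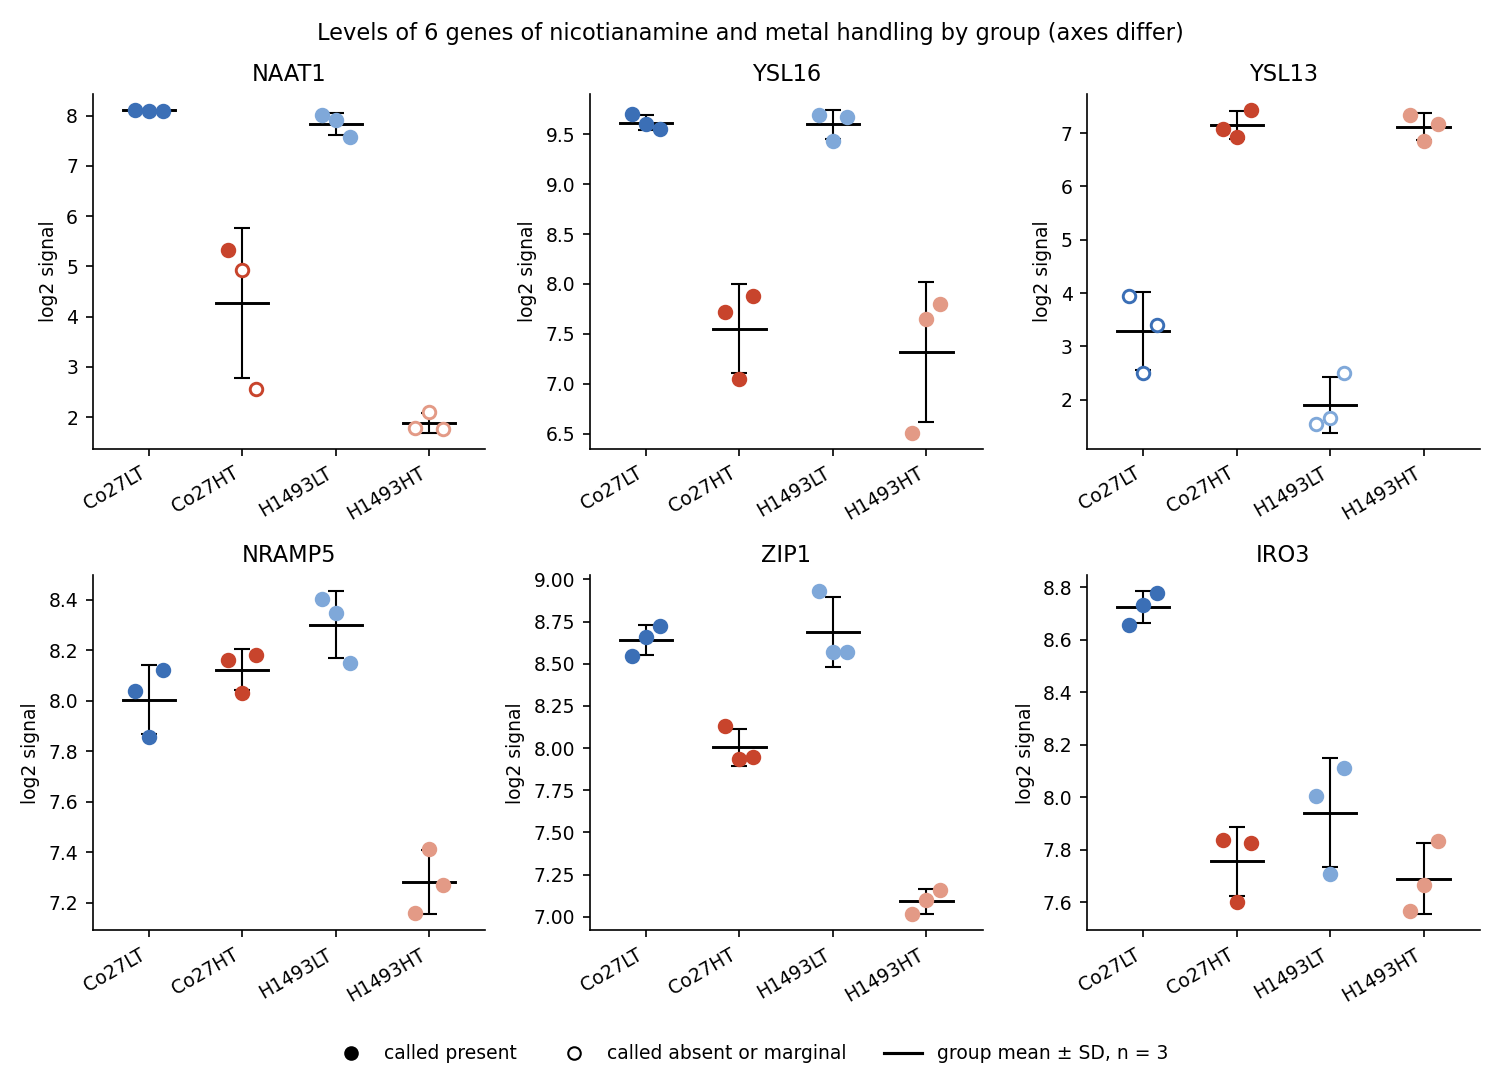
Log2 signal (vertical axes, each with its own range) on each array of the 4 groups (horizontal axis) for NAAT1, YSL16, YSL13, NRAMP5, ZIP1 and IRO3, with the mean and SD of 3 arrays, filled points where the array called the gene present. NAAT1 and YSL16 are high in both low-temperature groups, YSL13 in both high-temperature groups, NRAMP5 and ZIP1 are lowest in H1493HT, and IRO3 is highest in Co27LT.

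Among 16 metal uptake transporters, 3 were higher and 6 lower at low temperature in TGMS-Co27, and 3 higher and 7 lower in H1493, by limma. In TGMS-Co27, the zinc transporters ZIP2, ZIP4 and ZIP3 had log2 differences of -1.84, -1.53 and -0.95 (limma adjusted p at most 3.17e-05). NRAMP1, an iron and cadmium transporter, was 2.80-fold higher in Co27LT than in Co27HT, where no array called it present (limma adjusted p = 0.00189). In H1493, ZIP1 was higher by 1.60 and NRAMP1 by 1.28, and ZIP2 and ZIP3 had -1.10 and -1.04, all called. IRT1, the ferrous iron transporter of roots, was called present on no array, with log2 signals between 1.28 and 4.97.

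NRAMP5 and ZIP1 were the listed genes whose response to temperature differed between the lines, 0 higher and 2 lower of 44 by limma, against 0.936% of all probe sets called (0.576% higher and 0.36% lower). NRAMP5 had 8.04, 7.85 and 8.12 in Co27LT and 8.40, 8.35 and 8.15 in H1493LT, and its H1493HT arrays, given above, lay below those of the other groups. Its line-by-temperature difference was -1.14 (standard error 0.16, limma adjusted p = 0.0168). ZIP1 had 8.55, 8.66 and 8.72 in Co27LT and 8.93, 8.57 and 8.57 in H1493LT, and its line-by-temperature difference was -0.96 (standard error 0.17, limma adjusted p = 0.043).

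The ZIP1 call was lost without any 1 of the 12 arrays (adjusted p 0.0617 to 0.109), and the NRAMP5 call without H1493LT replicate 1 (0.0558), H1493LT replicate 2 (0.0599) or Co27LT replicate 1 (0.0509). Under median centring the adjusted p was 0.104 for NRAMP5 and 0.242 for ZIP1.

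Of the 5 measured storage and long-distance transport genes, 1 was higher and 2 lower at low temperature in each line by limma. HMA2, a zinc and cadmium pump of the vascular tissue, was higher in Co27LT by a capped 5.21-fold (limma adjusted p = 0.000544). In H1493 it was higher by a capped 3.21-fold in H1493LT (limma adjusted p = 0.00178), where 1 of 3 arrays called it present. With signals floored at a log2 value of 5 this call was lost (0.79). The copper pumps HMA4 and HMA5 were lower in both lines, with log2 differences of -1.07 in TGMS-Co27 and -1.0 in H1493 for HMA4 and -1.42 and -0.98 for HMA5. HMA5 in H1493 was close to the threshold (limma adjusted p = 0.0475) and lost its call after quantile normalization (0.0606) and under median centring (0.112), and without any 1 of 9 arrays, all except H1493HT replicate 3 and Co27LT replicates 2 and 3 (up to 0.148). The vacuolar iron transporters VIT1 and VIT2 passed in no comparison, and VIT2 had 0.65 between Co27HT and H1493HT and -0.60 between Co27LT and H1493LT (limma adjusted p = 0.267 and 0.507).

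Of the 2 measured iron regulators, IDEF1, a transcription factor that binds iron deficiency-responsive promoters, was lower at low temperature in both lines, with -0.70 in TGMS-Co27 (limma adjusted p = 0.00111) and -0.44 in H1493 (0.0163). The IDEF1 call in H1493 was lost without H1493HT replicate 2 (0.0552), H1493LT replicate 1 (0.0529) or H1493LT replicate 2 (0.0611) and under median centring (0.147). IRO3 was higher by 0.97 in TGMS-Co27 (limma adjusted p = 0.00038) and had 0.25 in H1493 (0.215). Its line-by-temperature difference, 0.72, did not pass (limma adjusted p = 0.129).

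Of the listed genes, 4 had all 3 Co27HT arrays above the other 9, as NAS3 had, namely SAMS1, ARD4, NRAMP6 and ZIP3. This order is stricter than the choice of NAS3, which rested on the strongest signal of the 4 groups. Other listed genes, such as IDI2 and ZIP2, also had their highest mean in Co27HT, with arrays that overlapped those of H1493HT. The 4 genes with all Co27HT arrays on top are 9.09% of the 44, against 4.25% of all probe sets. All 4 are bright, so they are 4 of the 31 bright listed genes, against 7.25% of bright probe sets. The gaps of these 4 genes to the nearest other array were between 0.04 and 0.10 log2 units, against 1.62 for NAS3. The summed green leaf signal was higher and the spike-in signal lower at low temperature in both lines, while RBCS of the green leaf list was lower, and their part in the temperature differences was not tested.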

How the data were processed

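The authors deposited a log2 signal and a detection call (present, marginal or absent) per probe set for 12 Affymetrix rice arrays, made with MAS5 according to the submitters' processing notes. The deposited linear signals have a 2% trimmed mean of 500.065 to 500.076 on every array, so arrays were scaled but do not share a distribution, although the methods name quantile normalization. Between 545 and 1968 signals per array were 0 in log2. The series value table held identical values. Detection call columns all had the same header and were matched to the signal column before them, which fitted on 12 of 12 arrays.

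After 123 control probe sets of 57381 were left out, 57258 were fitted together with limma 3.58.1 in R 4.3.3 (lmFit, contrasts.fit, eBayes), a mean per group, all 12 arrays, prior degrees of freedom 0.99 and 8 residual degrees of freedom. P-values were Benjamini-Hochberg adjusted over all probe sets and called under 0.05. The fit was tested on simulated data. Tables were handled in Python 3.11.15 with pandas 2.3.3.

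Genes were named from the platform annotation, updated through a RefSeq gene table of assembly ASM3414082v1. A single gene was given for 22436 probe sets, several for 95 and none for 34727. A gene was represented by its brightest probe set. The names TOM1, TOM2, IDI1, ARD1, ARD2, IRO2 and ZEP1 pointed to other or merged genes and were left out. Near-identical gene copies can share a probe set's signal, which was not examined. No sequence was analysed here.

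The members and gene lists were chosen with earlier results of these data known. Named genes are all NAS probe sets, the 8 genes most like NAS3, a set of iron genes fixed by name, and per role and comparison up to 4 with the largest called difference, or all in roles of up to 4 genes. Differences are Co27 minus H1493 and low minus high temperature. Each result was computed again on quantile-normalized values, on arrays centred on their medians, with log2 signals under 5 raised to 5, for bright probe sets alone (mean of at least 6), on the 6 arrays of a comparison, with limma's trend and robust options, with the replicate number as a blocking factor, and without each array in turn. Gene counts were also taken at the study's threshold (2-fold or more, unadjusted p under 0.05) and from the mean over a gene's probe sets.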

Additional observations from a re-analysis of the deposited data

Results flagged for a closer look

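The response to temperature differed between the lines, by a tested line-by-temperature term, for 2 listed genes. NRAMP5 had -1.138 (limma adjusted p = 0.0168), with a log2 difference between low and high temperature of -0.12 in TGMS-Co27 and 1.02 in H1493. ZIP1 had -0.9607 (limma adjusted p = 0.043), with 0.64 in TGMS-Co27 and 1.60 in H1493. Neither call held with arrays centred on their medians (limma adjusted p = 0.104 for NRAMP5 and 0.242 for ZIP1). The ZIP1 call was also lost without any 1 of the 12 arrays, and the NRAMP5 call without some of them. Groups of 3 arrays were too small for the search for single outlying samples.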

How the results depend on the processing

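The NAS3 differences kept their direction under every alternative tried. They moved by more than 1 SD only with arrays centred on their medians, to 1.96 between Co27HT and H1493HT, -2.06 between Co27LT and Co27HT and 0.34 between H1493LT and H1493HT, and with arrays left out in turn they ranged from 2.02 to 2.11, from -2.43 to -2.28 and from 0.07 to 0.21. NAS1 and NAS2 passed under no alternative and changed sign under some, and with bright probe sets only they gave no value. With signals floored at a log2 value of 5, NAS1 had -0.10 between Co27HT and H1493HT and a line-by-temperature difference of 0.10, and NAS2 had 0.18 between Co27LT and H1493LT and 0.019 between Co27LT and Co27HT. With arrays left out, NAS1 ranged from -0.89 to 1.33 between Co27LT and H1493LT and from -1.66 to 0.57 for the line-by-temperature difference, and NAS2 from -0.99 to 0.52 between Co27LT and H1493LT and from -1.15 to 0.36 between Co27LT and Co27HT. The replicate numbers did not pair the samples, since the deviations of same-numbered arrays from their group means correlated at -0.10 to 0.04. Counts of listed genes between the lines rested on few calls near the threshold. In Co27HT against H1493HT the count higher was 2, and it became 0 with median centring and with the 6 arrays compared, 1 with the replicate block and with the study's threshold, 5 with bright probe sets only and with limma-trend, and 6 with the floor. The count lower, 0, became 1 with bright probe sets only and with the study's threshold, and ranged from 0 to 1 with arrays left out. In Co27LT against H1493LT, 1 higher and 1 lower became 3 and 2 with the floor, 2 and 3 with bright probe sets only and with limma-trend, and 0 and 0 with the 6 arrays compared, while median centring gave 0 higher, the study's threshold gave 0 lower, and arrays left out gave 0 to 1 higher. For the line-by-temperature difference, 0 higher and 2 lower became 1 and 4 with the floor and 1 and 6 with bright probe sets only, the count lower was 5 with limma-trend and 0 with median centring, with the replicate block, and in some fits with an array left out (0 to 2), and the count higher was 1 with the study's threshold. For temperature, the study's threshold gave 4 higher and 6 lower in TGMS-Co27 and 5 lower in H1493, and median centring gave 11 lower in H1493. ARD4 in TGMS-Co27 had 0.056 with median centring and SAMS2 had -0.99 with the mean over its probe sets, the second of which was called present on 0 arrays. The cause of the other changes was not tested. Signals near background limit NAS1, NAS2 and the never present genes.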
